A study of Mus musculus with 6 samples.

Results

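The 9 genes described here encode the receptors, kinases and transcription factors through which a cell reads interferon. They are the type II interferon receptor chains Ifngr1 and Ifngr2, the type I interferon receptor chains Ifnar1 and Ifnar2, the Janus kinases Jak1 and Jak2, and the transcription factors Stat2, Irf9 and Irf1. They were listed by name, with earlier results of these data known, from the 54446 genes of the expression table. All 9 reached 10 counts in 2 or more libraries, as did 14956 genes that were then tested.

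Interferon gamma, a cytokine of T cells and natural killer cells, binds a receptor built from IFNGR1 and IFNGR2, which carry JAK1 and JAK2. Type I interferons bind IFNAR1 and IFNAR2, which carry TYK2 and JAK1 and lead to a complex that holds STAT2 and IRF9. Signals of the type II receptor reach DNA at the gamma-activated sequence (GAS), the complex with STAT2 and IRF9 binds the interferon-stimulated response element (ISRE), and IRF1 is an early product of the pathway that acts on antigen presentation genes in tumor cells.

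Poly(A) RNA was sequenced from TRAMP-C2 cells, an established prostate cancer line from a C57BL/6 male TRAMP mouse, whose tumors come from a prostate-directed viral oncogene. The cells were left untreated (Ctrl) or given 2 µM oxaliplatin (Oxali) or 2 µM cisplatin (Cispl) for 24 h, with 2 libraries in each of the 3 groups. All groups shared a medium with insulin and an androgen precursor, and no label names an added interferon. Both drugs are platinum compounds that crosslink DNA. Oxali holds platinum with a diaminocyclohexane carrier and an oxalate leaving group, and Cispl with ammines and chlorides. Nothing in the labels says that libraries of a group came from separate cultures, so that p-values measure the spread between these libraries, which may be technical, and 1 cell line cannot stand for others.

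Total counts were 21345312 to 24041767 per library, and at this depth 3 counts equal 0.125 to 0.141 CPM, the count scaled to the sum of its library. The cells had high levels of mesenchymal markers, with a sum over Vim, Fn1, Cdh2, Zeb1 and Col1a1 of 254238 to 296250 normalised counts, that is, counts divided by the size factor of the library. That sum was 296250 and 287365 in Ctrl, 275674 and 267095 in Oxali, and 254238 and 266297 in Cispl libraries. Among 6 epithelial markers Epcam and Cldn7 stayed under 10 counts in every library, as did the prostate markers Pbsn and Hoxb13. Markers of T and B cells summed to at most 1.86 and 2.94 normalised counts. The summed level of 5 macrophage and leukocyte markers was 50.2 and 54.0 in Ctrl, 39.9 and 44.6 in Oxali and 69.6 in both Cispl libraries, with Ptprc, Adgre1 and Itgam under 10 counts throughout. The 3 endothelial markers summed to 22.7 and 27.0 in Ctrl and to 51.2 to 71.6 after either drug, with Pecam1 and Cdh5 under 10 counts throughout. The epithelial sum was 2596 to 2859 in Ctrl, 2718 to 2811 in Oxali and 3345 to 3436 in Cispl libraries, and the part of such shifts in the results was not tested.

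Promoters of the members were searched because GAS, ISRE and NF-κB sites are elements through which interferon and inflammatory signals can reach a gene. Whether such sites act on these 9 genes was not tested. All 9 members matched the RefSeq promoter table (GRCm38.p6), where the 250 bases before each start were searched on both strands for GAS (TTCNNNGAA), an ISRE core (GAAANNGAA) and the NF-κB consensus. GAS occurred in 7.02%, the ISRE core in 7.13% and the NF-κB consensus in 5.00% of the 32851 promoters in that table. The 4 promoters that held a match are given 5′ to 3′ on the forward strand, with the matched bases in capitals. That of Ifngr2 (chr16:91546809-91547058) had 1 NF-κB match that began 75 bases before the start. That of Irf1 (chr11:53769764-53770013) had a GAS match 90 bases and an NF-κB match 13 bases before the start, that of Ifnar2 (chr16:91372533-91372782) a GAS match 214 bases before it, and that of Stat2 (chr10:128270248-128270497) an ISRE core 221 bases before it.
Ifngr2: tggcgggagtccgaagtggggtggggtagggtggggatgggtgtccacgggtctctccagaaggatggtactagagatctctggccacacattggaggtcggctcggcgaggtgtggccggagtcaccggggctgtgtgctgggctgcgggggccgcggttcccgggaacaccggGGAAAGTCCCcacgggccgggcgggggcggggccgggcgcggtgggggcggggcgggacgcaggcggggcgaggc
Irf1: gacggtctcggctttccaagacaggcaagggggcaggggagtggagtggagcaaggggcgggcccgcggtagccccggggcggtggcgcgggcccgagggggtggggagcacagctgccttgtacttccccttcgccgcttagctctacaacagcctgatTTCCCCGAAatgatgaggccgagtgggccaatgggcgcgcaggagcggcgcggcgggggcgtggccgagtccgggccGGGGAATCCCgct
Ifnar2: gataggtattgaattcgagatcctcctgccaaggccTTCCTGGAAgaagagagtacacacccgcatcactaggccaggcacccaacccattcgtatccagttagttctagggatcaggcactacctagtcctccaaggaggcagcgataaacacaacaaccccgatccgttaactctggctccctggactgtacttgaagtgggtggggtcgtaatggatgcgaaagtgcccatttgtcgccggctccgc
Stat2: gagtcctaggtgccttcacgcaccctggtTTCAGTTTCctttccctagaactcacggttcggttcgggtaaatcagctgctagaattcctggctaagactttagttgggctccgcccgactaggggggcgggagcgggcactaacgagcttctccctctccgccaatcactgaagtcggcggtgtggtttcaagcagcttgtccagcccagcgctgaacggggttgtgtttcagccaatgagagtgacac
Both GAS matches read the same motif on either strand and were counted once, and none of the matches overlapped another motif. None of the 3 motifs was found in these windows of Ifngr1, Ifnar1, Jak1, Jak2 or Irf9, or at a second RefSeq start of Irf1. The RefSeq starts of Irf9 lie 414 and 1008 bases downstream of its GENCODE start (55603571), so that its windows lie within the gene. The bases before that GENCODE start were not searched, and the absence for Irf9 covers only the windows inside the gene. A match describes letters in a window, and says nothing on whether a factor bound there.

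After both drugs the transcripts of these genes shifted by small amounts, at most 35.2%, and not in 1 direction. Ifngr1 rose and Ifnar1 fell after either drug. Jak2 fell after Oxali, whereas Ifngr2, Jak1, Irf9 and Irf1 rose after Cispl. DESeq2 with Benjamini-Hochberg adjustment over the genes kept by its independent filtering called 3 of the 9 in Oxali against Ctrl, 1 higher and 2 lower. There it called 20.2% of all genes tested (10.7% higher and 9.50% lower). In Cispl against Ctrl it called 6 of the 9, 5 higher and 1 lower, where the share over all genes was 28.1% (15.7% higher and 12.4% lower). In Oxali against Cispl it called 3, all lower in Oxali, where the share was 19.9% (8.62% higher and 11.3% lower in Oxali). These DESeq2 shares include 2900, 1740 and 2900 genes without an adjusted p, which could not be called. All 9 members had one, so that the shares over genes that could be called were higher than those given. A quasi-likelihood test in edgeR called more genes in general. It called 6 members in Oxali against Ctrl (3 higher, 3 lower) where it called 30.9% of all genes tested (15.6% higher, 15.3% lower), 7 in Cispl against Ctrl (6 higher, 1 lower) where the share was 40.9% (20.7% higher, 20.2% lower), and 4 in Oxali against Cispl (0 higher, 4 lower) where it was 31.9% (15.4% higher, 16.5% lower). With 9 genes, DESeq2 counts of 3 lie close to the background and nothing is read from them about the list. Both comparisons with Ctrl share the control libraries, so that a high or low Ctrl value moves both.

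The median log2 fold change of the 9 members was 0.16 in Oxali and 0.25 in Cispl against Ctrl, and -0.14 in Oxali against Cispl, where the medians over all genes tested were -0.0029, -0.00083 and -0.0033. Libraries of the groups compared did not overlap for 8 members in Oxali against Ctrl (5 higher, 3 lower), where 64.8% of all genes tested did not overlap (32.1% higher, 32.7% lower). They did not overlap for 8 in Cispl against Ctrl (7 higher, 1 lower) against 69.4% of all genes (34.6% higher, 34.8% lower), and for 6 in Oxali against Cispl (0 higher, 6 lower) against 68.0% (33.5% higher, 34.5% lower). In bulk RNA fewer cells of a type and less RNA per cell cannot be told apart. The panels of values by library show the spread within groups, as for Ifnar2 in Oxali (1158 and 1305 normalised counts).

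**Figure D1:**
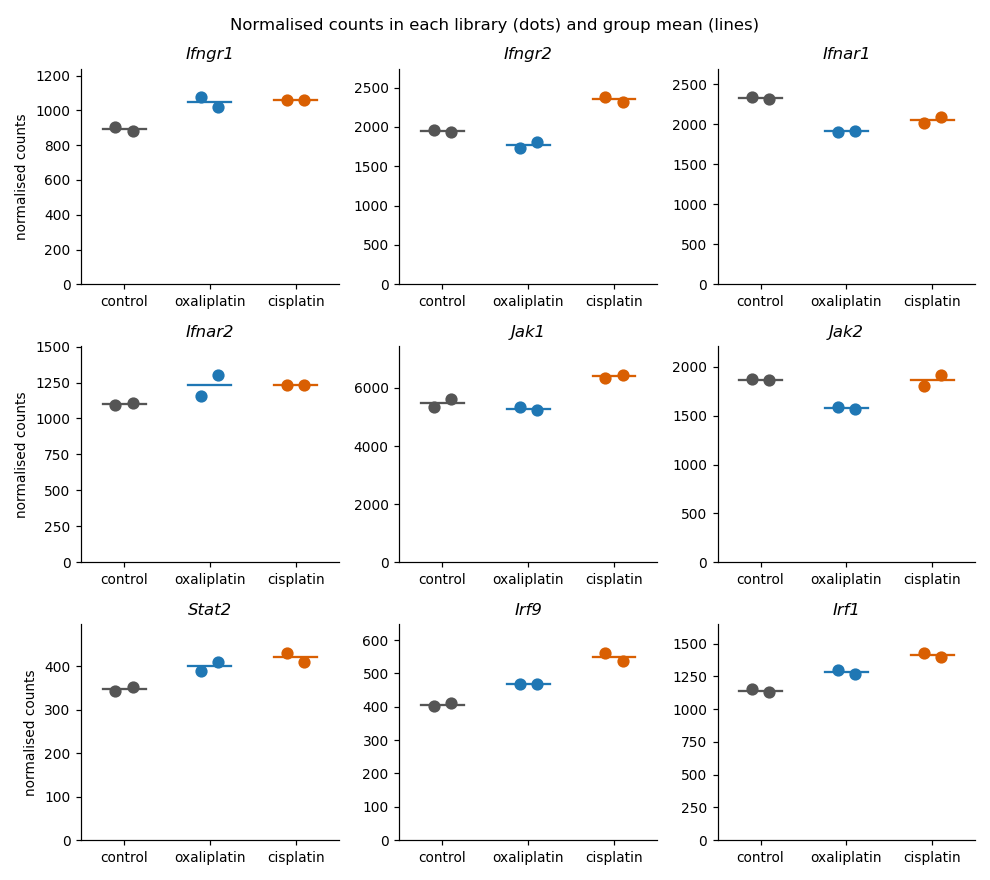
Normalised counts (y axis, from 0) of the 9 members in each library (dots) of the control, oxaliplatin and cisplatin groups (x axis), with lines at the mean of 2 libraries. The cisplatin libraries of Ifngr2 (2385 and 2316) lie above and its oxaliplatin libraries (1730 and 1812) below the controls (1965 and 1936), while both drug groups of Ifnar1 lie below the controls.

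The chains of the type II receptor behaved differently from each other. Ifngr1, the chain that binds interferon gamma (ENSMUSG00000020009, GRCm38 chromosome 10, 19591949 to 19610229, forward strand), had normalised counts of 905 and 879 in Ctrl, 1079 and 1022 in Oxali, and 1060 and 1062 in Cispl libraries. All drug-treated libraries were above both controls, and the drug groups overlapped. It rose by 17.8% after Oxali (log2 fold change 0.24 ± 0.09 SE, DESeq2 adjusted p = 0.0348) and by 19.0% after Cispl (0.25 ± 0.09, DESeq2 adjusted p = 0.0198). Between the drugs the log2 difference was -0.01 (95% interval -0.19 to 0.16, DESeq2 adjusted p = 0.939). The rises were near the threshold, since leaving out any of the 6 libraries ended the call for Oxali (DESeq2 adjusted p from 0.131 to 0.427) and for Cispl (0.0850 to 0.212). Of 14 alternatives, 5 kept the Oxali call and 6 the Cispl call. Other losses of the Oxali call included that without the filter on low counts (DESeq2 adjusted p = 0.0553). A fit to the 4 libraries compared also lost it (0.0723). Losses of the Cispl call included that with scaling by total counts (DESeq2 adjusted p = 0.0680).

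Ifngr2, the chain that brings JAK2 to the receptor (ENSMUSG00000022965, chromosome 16, 91547072 to 91565623, forward strand), separated the drugs. Its normalised counts were 1965 and 1936 in Ctrl, 1730 and 1812 in Oxali, and 2385 and 2316 in Cispl libraries, so that no group overlapped another and Ctrl lay between the drugs. It rose by 20.5% after Cispl (log2 fold change 0.27 ± 0.07, DESeq2 adjusted p = 3.08e-04), a call that was lost without Cispl replicate 1 (0.25, DESeq2 adjusted p = 0.0634). After Oxali its log2 fold change was -0.14 ± 0.07 and missed the threshold (DESeq2 adjusted p = 0.114). The edgeR test called that difference (edgeR adjusted p = 0.0292), the only 1 of 14 alternatives to do so (range 0.0292 to 0.592). In the direct comparison Ifngr2 was lower after Oxali than after Cispl by a log2 value of -0.41 ± 0.07 (95% interval -0.54 to -0.28, DESeq2 adjusted p = 1.70e-08), and this call held in all 14 alternatives. Its promoter, printed above, holds an NF-κB match, and 74.0% of its 250 bases are G or C.

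The type I receptor chains also moved apart. Ifnar1 (ENSMUSG00000022967, chromosome 16, 91485238 to 91507441, forward strand), the chain that holds TYK2, had normalised counts of 2346 and 2318 in Ctrl, 1908 and 1917 in Oxali, and 2017 and 2086 in Cispl libraries. Both drug groups lay below Ctrl without overlap, and Oxali lay below Cispl. It fell by 18.0% after Oxali (log2 fold change -0.29 ± 0.06, DESeq2 adjusted p = 6.74e-05), in all 14 alternatives. After Cispl it fell by 12.0% (-0.19 ± 0.06, DESeq2 adjusted p = 0.0136). That call held in 7 of 14 alternatives and was lost when any of the 6 libraries was left out. The drugs differed by -0.10 (95% interval -0.23 to 0.02), which did not pass (DESeq2 adjusted p = 0.258).

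Ifnar2, the chain that docks STAT2 (ENSMUSG00000022971, chromosome 16, 91372783 to 91405589, forward strand), went the other way without passing the test. Its normalised counts were 1096 and 1106 in Ctrl, 1158 and 1305 in Oxali, and 1233 and 1236 in Cispl libraries, with every drug-treated library above Ctrl. The log2 fold changes were 0.16 ± 0.09 (DESeq2 adjusted p = 0.1999) and 0.17 ± 0.09 (DESeq2 adjusted p = 0.160), and the difference between the drugs, -0.00, had a 95% interval of -0.18 to 0.17. Leaving out Oxali replicate 2 moved the Oxali value to 0.07. Ifnar2 shares 315 of 3329 exonic bases with Gm21970, a gene annotated across Ifnar2 and its neighbor on the same strand with a mean of 54.5 to 100.2 normalised counts per group, so that the division of reads between both is uncertain.

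**Figure D2:**
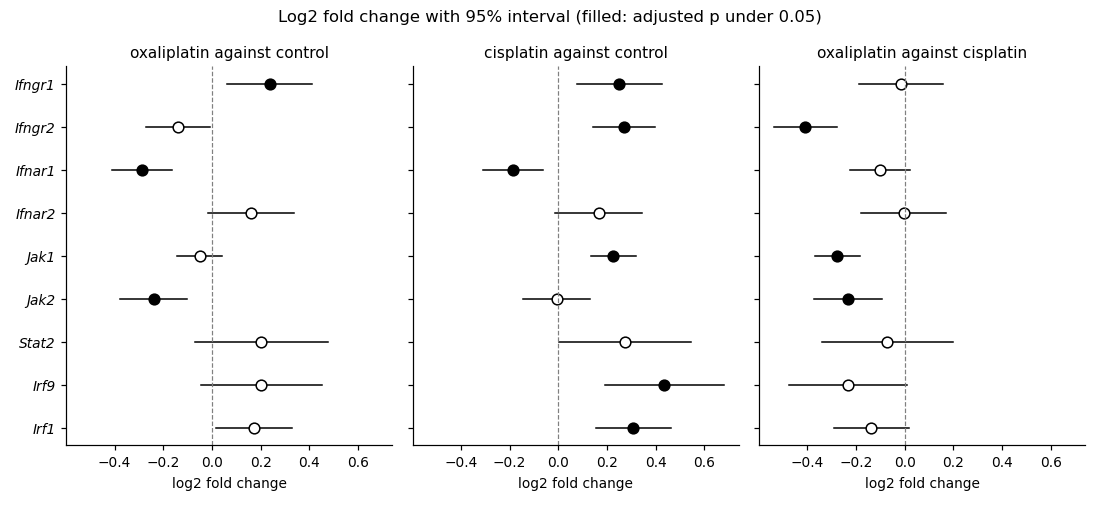
Log2 fold change (x axis) of each member (y axis) in oxaliplatin against control, cisplatin against control and oxaliplatin against cisplatin, with bars for the 95% interval and filled circles where the DESeq2 adjusted p was under 0.05. Ifnar1 lies left of 0 against control for both drugs, and in the right panel Ifngr2 (-0.41), Jak1 (-0.28) and Jak2 (-0.23) are the filled circles.

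Of the kinases, Jak1 serves both receptors and Jak2 the type II receptor. Jak1 (ENSMUSG00000028530, chromosome 4, 101152367 to 101265282, reverse strand) had normalised counts of 5330 and 5625 in Ctrl, 5334 and 5243 in Oxali, and 6354 and 6460 in Cispl libraries. The Cispl libraries stood above all others, and Oxali overlapped Ctrl. It rose by 17.0% after Cispl (log2 fold change 0.23 ± 0.05, DESeq2 adjusted p = 1.48e-05), while the value after Oxali was -0.05 (95% interval -0.14 to 0.04, DESeq2 adjusted p = 0.493). The difference between the drugs was -0.28 ± 0.05 (95% interval -0.37 to -0.19, DESeq2 adjusted p = 8.94e-08), and this call and that for Cispl held in all 14 alternatives.

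Jak2 (ENSMUSG00000024789, chromosome 19, 29251828 to 29313080, forward strand) showed another order. Its normalised counts were 1876 and 1862 in Ctrl, 1593 and 1573 in Oxali, and 1803 and 1921 in Cispl libraries. Oxali lay below all other libraries, whereas Cispl spanned Ctrl. It fell by 15.3% after Oxali (log2 fold change -0.24 ± 0.07, DESeq2 adjusted p = 0.00463) and was -0.01 after Cispl (95% interval -0.14 to 0.13, DESeq2 adjusted p = 0.966). The drugs differed by -0.23 ± 0.07 (95% interval -0.37 to -0.10, DESeq2 adjusted p = 0.00610). The Oxali call held in 10 of 14 alternatives and was lost without either Ctrl library or either Oxali library. The call between the drugs held in 9 of 14, and its losses included those without any 1 of the Oxali or Cispl libraries.

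The transcription factors were higher after both drugs in every library, but passed the test after Cispl only for Irf9 and Irf1. Stat2 (ENSMUSG00000040033, chromosome 10, 128270559 to 128292849, forward strand), a part of the ISRE-binding complex, had normalised counts of 342 and 353 in Ctrl, 390 and 410 in Oxali, and 431 and 409 in Cispl libraries. Its log2 fold changes were 0.20 ± 0.14 (DESeq2 adjusted p = 0.318) and 0.27 ± 0.14 (DESeq2 adjusted p = 0.122), and the drugs differed by -0.07 (95% interval -0.34 to 0.20). edgeR called the Cispl value (edgeR adjusted p = 0.0113), the only 1 of 14 alternatives to do so (range 0.0113 to 0.501).

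Irf9, the DNA-binding part of that complex (ENSMUSG00000002325, chromosome 14, 55603571 to 55610030, forward strand), had the largest change of the 9 genes. Its normalised counts were 402 and 412 in Ctrl, 468 and 469 in Oxali, and 563 and 537 in Cispl libraries, 3 groups without overlap. It rose by 35.2% after Cispl (95% interval 14.1% to 60.2%, log2 fold change 0.44 ± 0.12, DESeq2 adjusted p = 0.00269). Without Ctrl replicate 1 or 2 that adjusted p was 0.0754 or 0.0571, and without Cispl replicate 1 or 2 it was 0.136 or 0.0716, each from DESeq2. The Oxali value of 0.20 ± 0.13 (DESeq2 adjusted p = 0.256) and the difference between drugs of -0.23 (95% interval -0.47 to 0.01, DESeq2 adjusted p = 0.165) were called by edgeR alone (edgeR adjusted p = 0.0325 and 0.0176, with ranges over 14 alternatives of 0.0325 to 0.618 and 0.0176 to 0.601). Irf9 shares 123 of 5386 exonic bases with Rnf31 on the same strand, so that the division of reads between both is uncertain. The mean of Rnf31 was 436 in Ctrl, 385 in Oxali and 364 normalised counts in Cispl, an order opposite to that of Irf9. The part of shared reads in these values was not tested.

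Irf1 (ENSMUSG00000018899, chromosome 11, 53770014 to 53778374, forward strand) had normalised counts of 1157 and 1128 in Ctrl, 1303 and 1271 in Oxali, and 1432 and 1397 in Cispl libraries. The groups did not overlap, with Oxali between Ctrl and Cispl. It rose by 23.8% after Cispl (log2 fold change 0.31 ± 0.08, DESeq2 adjusted p = 6.24e-04), a call lost without Cispl replicate 1 (DESeq2 adjusted p = 0.0747). After Oxali the value was 0.17 ± 0.08 (DESeq2 adjusted p = 0.0986), called by edgeR alone of 14 alternatives (edgeR adjusted p = 0.0220, range 0.0220 to 0.512). The drugs differed by -0.14 (95% interval -0.29 to 0.02, DESeq2 adjusted p = 0.204). Its promoter is the only one of those searched that held both a GAS and an NF-κB match.

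With exon length taken into account, Jak1 had the highest level of the 9 genes, followed by Ifngr2. Normalised counts per kb of the union of exons in Ctrl were 758 ± 28.9 (SD, n = 2) for Jak1, 518 ± 5.52 for Ifngr2 and 393 ± 3.33 for Ifnar1, and then 372 ± 1.98 for Jak2, 331 ± 2.25 for Ifnar2, 313 ± 6.47 for Ifngr1 and 287 ± 5.15 for Irf1. Irf9 and Stat2 were far lower, at 75.5 ± 1.34 and 58.7 ± 1.23 normalised counts per kb. Neighbors in this order were each apart by more than their SD. After Oxali, Ifnar2 (370 ± 31.2) and Ifngr1 (369 ± 14.0) did not differ beyond their spread, nor did Irf1 (324 ± 5.60) and Ifnar1 (322 ± 1.07), and Jak2 came next at 315 ± 2.83. After Cispl, Ifngr1 (373 ± 0.594), Ifnar2 (371 ± 0.600) and Irf1 (356 ± 6.32) lay within the spread of Jak2 (370 ± 16.6), with Ifnar1 at 345 ± 8.32.

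**Figure D3:**
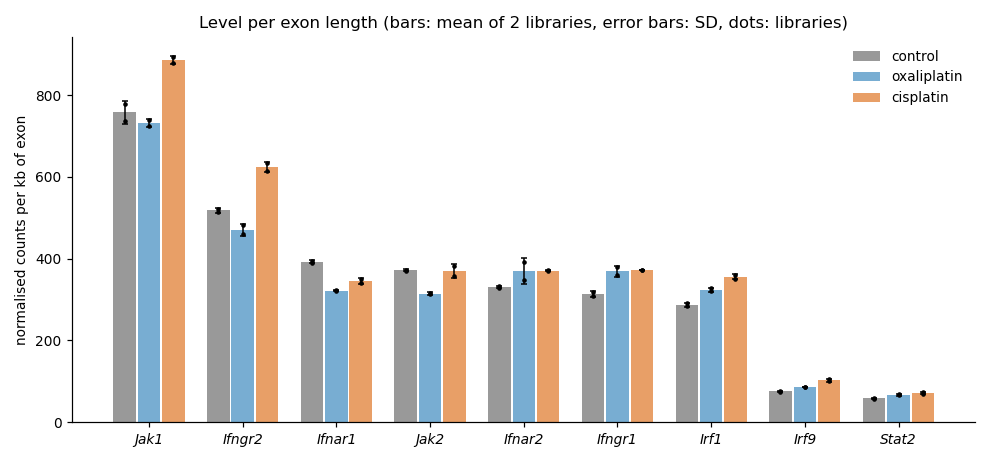
Level of each member as normalised counts per kb of exon (y axis, from 0), with bars for the mean of 2 libraries per group, error bars for the SD and dots for libraries. Jak1 is highest in every group (758, 732 and 887 in control, oxaliplatin and cisplatin cells), and Irf9 and Stat2 are lowest.

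Ifnar1 went from rank 3 in Ctrl to rank 6 after Oxali and rank 7 after Cispl on this scale. The middle of the order depends on the length used. With the longest transcript in place of the union of exons, Ifnar1 came second in Ctrl (597 per kb) and Irf1 second after Oxali (602) and Cispl (662), while Jak1 stayed first and Irf9 and Stat2 last in each group.

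Ratios within a library do not depend on the scaling between libraries. The ratio of Ifngr1 to Ifngr2 per kb was 0.609 and 0.601 in Ctrl, 0.825 and 0.746 in Oxali, and 0.588 and 0.607 in Cispl libraries. The Oxali libraries stood above the rest, while Cispl, in which both chains rose, overlapped Ctrl. For Ifnar1 to Ifnar2 the ratio was 1.20 and 1.17 in Ctrl, 0.924 and 0.823 in Oxali, and 0.916 and 0.946 in Cispl libraries, so that the type I chain of higher level per kb was Ifnar1 in Ctrl and Ifnar2 after either drug. With the longest transcript in place of the union of exons Ifnar1 was the higher in every group. Jak1 to Jak2 was 1.98 and 2.10 in Ctrl, 2.33 and 2.32 in Oxali, and 2.45 and 2.34 in Cispl libraries, higher after both drugs although Jak2 alone was called after Oxali and Jak1 alone after Cispl. These ratios are descriptions, with no test.

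**Figure D4:**
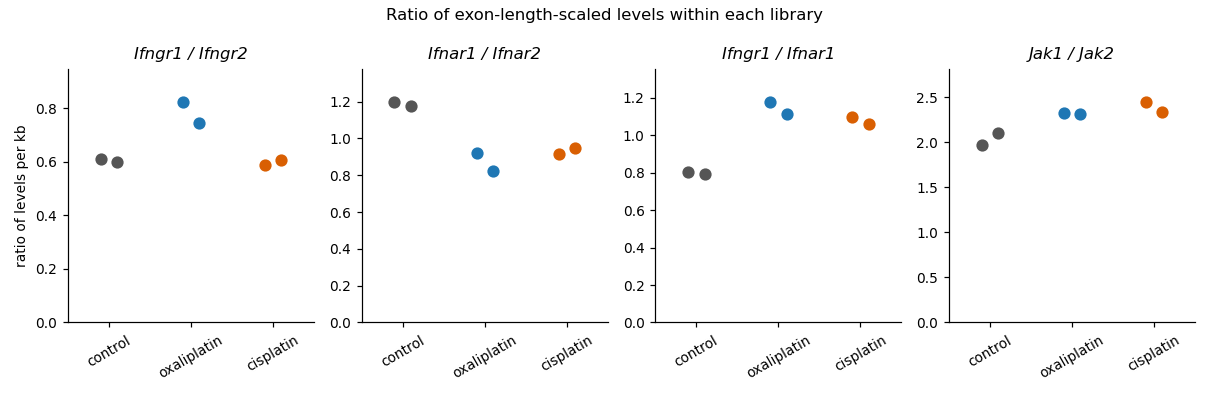
Ratio of exon-length-scaled levels (y axis, from 0) within each library (dots) for Ifngr1 to Ifngr2, Ifnar1 to Ifnar2, Ifngr1 to Ifnar1 and Jak1 to Jak2 in the 3 groups (x axis). The Ifngr1 to Ifnar1 ratio was 0.805 and 0.791 in control, 1.18 and 1.11 in oxaliplatin and 1.10 and 1.06 in cisplatin libraries.

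Among the receptor genes, 3 are neighbors on chromosome 16. From the start of Ifnar2 to the end of Ifngr2, 5 protein-coding genes lie within 192841 bp on the forward strand, in the order Ifnar2, Gm21970, Il10rb, Ifnar1 and Ifngr2, and neither drug moved them together. Il10rb, a chain of the interleukin-10 and interferon lambda receptors, had normalised counts of 793 and 803 in Ctrl, 730 and 731 in Oxali, and 995 and 1064 in Cispl libraries, with Ctrl between the drugs as for Ifngr2. It rose after Cispl (log2 fold change 0.37 ± 0.10, DESeq2 adjusted p = 8.18e-04), a call lost without Cispl replicate 2. After Oxali its log2 fold change against Ctrl was -0.13 ± 0.10 and did not pass (DESeq2 adjusted p = 0.380). Il10rb was lower after Oxali than after Cispl (-0.50 ± 0.10, DESeq2 adjusted p = 4.60e-06). Between these genes, Ifnar1 was lower than Ctrl after both drugs. Gm21970 did not pass (log2 fold change -0.37 ± 0.43 and 0.52 ± 0.42).

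None of the 14 interferon genes listed reached the count needed for a test, and other interferon genes were not examined. Of these 14 genes, 12 had 0 counts in all 6 libraries, Ifng among them, which allows up to 0.125 to 0.141 CPM in a library. That bound reflects counting error alone, because reads were not tagged by molecule. Ifnb1 had 0 and 1 counts in Ctrl, 1 and 0 in Oxali, and 2 and 2 in Cispl libraries. Ifnz, one of a family of near-identical copies among which reads are divided, had 8 and 10 counts in Ctrl, 0 and 4 in Oxali, and 9 and 7 in Cispl libraries.

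Around the members, 61 other genes of the interferon and JAK-STAT pathway were listed, of which 41 passed the filter on low counts. DESeq2 called 8 in Oxali against Ctrl (5 higher, 3 lower), 12 in Cispl against Ctrl (8 higher, 4 lower) and 10 in Oxali against Cispl (4 higher, 6 lower), shares close to the 20.2%, 28.1% and 19.9% over all genes. The medians of their log2 fold changes were -0.02, 0.05 and -0.07. Of 5 other STAT genes tested none was called against Ctrl by DESeq2, 1 for Oxali and 0 for Cispl having an unadjusted p under 0.05.

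Among 13 other cytokine receptor genes tested, 5 were called against Ctrl for each drug. Over all genes tested the shares were 20.2% for Oxali and 28.1% for Cispl, and nothing is read from a count over 13 genes. Il6st, which encodes gp130, the shared chain of interleukin-6 family receptors, rose from 7040 to 9163 mean normalised counts after Oxali (log2 fold change 0.38 ± 0.05, DESeq2 adjusted p = 1.08e-11) and to 8006 after Cispl (0.19 ± 0.05, DESeq2 adjusted p = 0.00215). Osmr, the oncostatin M chain that pairs with it, rose after Oxali (0.36 ± 0.08, DESeq2 adjusted p = 1.11e-04), and Lifr, the leukemia inhibitory factor chain, fell after Cispl (-0.34 ± 0.08, DESeq2 adjusted p = 2.03e-04). Il4ra rose after both (0.56 ± 0.15 and 0.63 ± 0.15, DESeq2 adjusted p = 0.00124 and 1.65e-04) and Il11ra1, which also signals through gp130, fell after both (-0.42 ± 0.09 and -0.57 ± 0.09, DESeq2 adjusted p = 6.09e-05 and 1.83e-08). Ghr, the growth hormone receptor, fell after Oxali (-0.33 ± 0.09, DESeq2 adjusted p = 0.00160). The Oxali calls of Il4ra and Osmr were lost without Oxali replicate 1 (DESeq2 adjusted p = 0.158 and 0.0647). That of Ghr was lost without Ctrl replicate 1, Ctrl replicate 2 or Oxali replicate 2 (0.0646, 0.0530 and 0.150). The Cispl call of Il6st was lost without Ctrl replicate 1 or Cispl replicate 2 (0.0914 and 0.116), and that of Lifr without Cispl replicate 1 (0.0626).

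Tyk2, the kinase held by IFNAR1, fell after Oxali as Ifnar1 did (mean normalised counts 715 to 570, with a log2 fold change of -0.33 ± 0.11 and DESeq2 adjusted p = 0.0142), a call lost when any of the 6 libraries was left out (0.0760 to 0.300). Of 4 other IRF genes tested, 3 were called after Cispl, where 28.1% of all genes were, and nothing is read from a count over 4 genes. They are named after their values were seen. Irf2 (0.28 ± 0.11) and Irf7 (0.96 ± 0.39, from a mean of 44.2 to 86.3 normalised counts) rose and Irf3 (-0.38 ± 0.14) fell, with DESeq2 adjusted p values of 0.0359, 0.0446 and 0.0277. The calls of Irf2 and Irf3 were lost when any library was left out (0.119 to 0.316 and 0.0767 to 0.319), and that of Irf7 without Ctrl replicate 1 or either Oxali library (0.385, 0.109 and 0.106), while DESeq2 gave it no adjusted p without a Cispl library.

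Negative regulators of the pathway gave 2 calls after Oxali and 4 after Cispl among 17 tested. The shares over all genes tested were 20.2% and 28.1%, and nothing is read from these counts about the regulators. Ptpn2, a phosphatase of JAK1, rose by 0.21 ± 0.08 and 0.23 ± 0.08 on the log2 scale (DESeq2 adjusted p = 0.0476 and 0.0194), and both calls were lost when any library was left out (0.144 to 0.432 and 0.0817 to 0.304). Socs5 rose after Oxali (0.21 ± 0.06, DESeq2 adjusted p = 0.00451), lost without Ctrl replicate 1, Oxali replicate 1 or Oxali replicate 2 (0.119, 0.151 and 0.137). After Cispl the phosphatase genes Ptpn11 (0.18 ± 0.05, DESeq2 adjusted p = 9.18e-04) and Ptpn6 (1.03 ± 0.36, from 52.8 to 108 mean normalised counts, DESeq2 adjusted p = 0.0180) rose, and Pias3, named after its values were seen, fell (-0.31 ± 0.11, DESeq2 adjusted p = 0.0218). The call of Ptpn11 was lost without Ctrl replicate 1 or Cispl replicate 2 (0.0544 and 0.110), that of Ptpn6 without Ctrl replicate 1 (0.243, with no adjusted p given without a Cispl library), and that of Pias3 without any 1 of the 6 libraries (0.0890 to 0.250). The summed leukocyte and epithelial markers given above were also highest in the Cispl libraries, with Ptprc, Adgre1 and Itgam under 10 counts, and their part in the Ptpn6 value was not tested.

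**Figure D5:**
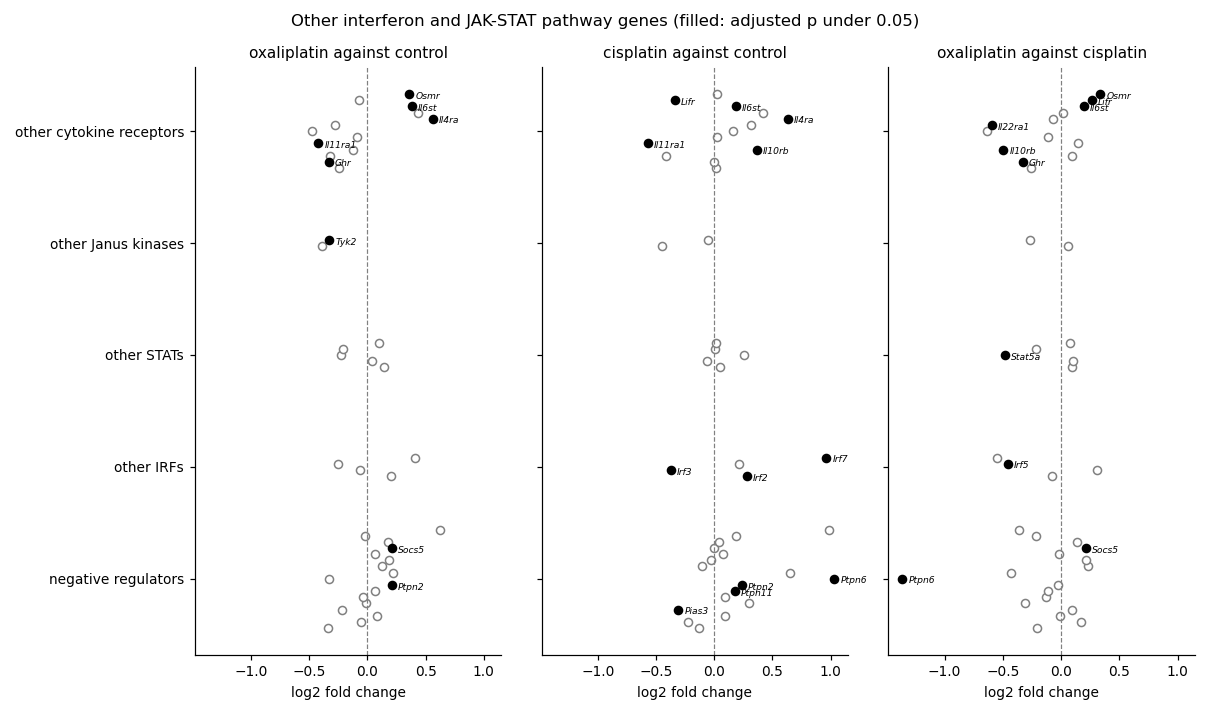
Log2 fold change (x axis) of the 41 other pathway genes tested, by group (y axis), in the 3 comparisons, with filled, named circles where the DESeq2 adjusted p was under 0.05. Of them 8, 12 and 10 are filled, and Ptpn6 lies at 1.03 in cisplatin against control and at -1.36 in oxaliplatin against cisplatin.

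The drugs were 1 pair of compounds at matched dose and time. Among the 41 other pathway genes tested 10 were called between them, where 19.9% of all genes tested were called. Il10rb, Ghr (-0.33 ± 0.09, DESeq2 adjusted p = 0.00171), Stat5a (-0.48 ± 0.15, DESeq2 adjusted p = 0.00946) and Ptpn6 (-1.36 ± 0.37, DESeq2 adjusted p = 0.00181) were lower after Oxali than after Cispl. Osmr (0.34 ± 0.08, DESeq2 adjusted p = 3.18e-04), Il6st (0.19 ± 0.05, DESeq2 adjusted p = 0.00136), Lifr (0.26 ± 0.08, DESeq2 adjusted p = 0.00692) and Socs5 (0.21 ± 0.06, DESeq2 adjusted p = 0.00442) were higher. Irf5 and Il22ra1, named after their values were seen, were lower after Oxali, by -0.46 ± 0.15 and -0.59 ± 0.23 (DESeq2 adjusted p = 0.00995 and 0.0400). The calls of Ghr, Stat5a and Irf5 were lost without any 1 of the 4 drug-treated libraries (highest DESeq2 adjusted p of 0.146, 0.221 and 0.304). Those of Lifr and Socs5 were lost without either Oxali library or Cispl replicate 1 (highest 0.256 and 0.234), those of Osmr and Il6st without replicate 1 of either drug (highest 0.0953 and 0.112), and that of Il22ra1 without any 1 of the Ctrl or Oxali libraries (highest 0.393). The call of Il10rb held in all 14 alternatives, and that of Ptpn6 in the 9 that gave it an adjusted p.

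The genes most like Ifngr2 and Irf1 over the 6 libraries were found by the Pearson correlation of log2 values among 10730 genes with a mean of at least 100 normalised counts. For Ifngr2 these were Ifi30 (r = 0.9998), Klhdc3 (0.998) and Carhsp1 (0.997), and 303 genes lay above 0.95. Ifi30, which encodes a lysosomal thiol reductase that prepares antigens for presentation, had mean normalised counts of 1184 in Ctrl, 1021 in Oxali and 1599 in Cispl cells, with Ctrl between the drugs as for Ifngr2. For Irf1 they were Tomm22 (0.9992), Msln (0.998) and Slc39a8 (0.996), with 491 genes above 0.95. With 3 group levels and 6 libraries many genes share any such pattern, so that these values are descriptions.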

How the data were processed

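TRAMP-C2 libraries, 2 each of Ctrl, Oxali and Cispl, were made from poly(A) RNA by a stranded mRNA protocol, and groups and replicate numbers came from the labels. The authors deposited expected counts per gene without scaling between libraries. The submitters' processing notes name STAR (2.5.3a), RSEM (1.3.0) and GRCm38.p6. The paper's methods name a counter other than RSEM, and whether counting used strand is not given in the sources used here. RSEM divides reads shared by several genes.

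Gene symbols, positions and exon lengths were taken from GENCODE M21 (GRCm38). There 54409 of 54446 identifiers matched, 53229 with the same version. Expected counts were rounded. Genes that reached 10 counts in 2 or more libraries entered the test, and 1 DESeq2 fit (version 1.42.0, R 4.3.3) to all 6 libraries gave Wald tests, unshrunken log2 fold changes with SE, and two-sided p-values adjusted by Benjamini-Hochberg within each contrast over all genes tested (threshold 0.05, independent filtering at 0.1). Intervals are at 95%. Size factors were 0.964 to 1.08, and replicates correlated at 0.993 to 0.995 on the log2 scale but differed by more than sampling noise (mean chi-square per gene 2.83 to 4.73).

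Members, lists and tests were chosen with earlier results of these data known. Of other pathway genes, up to 8 called genes with the smallest adjusted p are named per contrast, and exceptions are stated. Alternatives were edgeR's quasi-likelihood test (4.0.16), scaling by TMM or by total counts, a fit of every gene or of those with 10 counts in each library, independent filtering switched off, the replicate number as a block, a fit to the 4 libraries compared, and each library left out in turn. Where a group was left with 1 library, that library was assumed to vary like the others. Scripts were tested on simulated data. Promoters came from RefSeq. Some genes of the lists are not reported here.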

Additional observations from a re-analysis of the deposited data

How the results depend on the processing

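Of 126 alternative values for members in each comparison (14 alternatives of 9 genes), 110 in Oxali against Ctrl, 103 in Cispl against Ctrl and 113 in Oxali against Cispl kept their direction and their side of the threshold, while 13, 21 and 5 lost the call and 3, 1 and 1 gained it. Directions turned for values near 0. In Oxali against Cispl that of Ifngr1 became 0.020 with total-count scaling and ranged from -0.054 to 0.024 over the left-out libraries, and that of Ifnar2 became 0.0014 with edgeR, 0.0018 with TMM scaling, 0.029 with total-count scaling and 3.2e-04 with only the libraries compared, and ranged from -0.093 to 0.079 over the left-out libraries. In Cispl against Ctrl that of Jak2 ranged from -0.052 to 0.041, turning without Cispl replicate 1. In Oxali against Ctrl edgeR called 6 members, 3 higher and 3 lower, in place of 3, where its share over all genes was 30.9% in place of 20.2%. Of other pathway genes edgeR called 15 in place of 8 for Oxali and 19 in place of 10 between the drugs, where its share over all genes was 31.9% in place of 19.9%. Leaving out 1 library gave 1 to 2 members for Oxali, 1 to 4 for Cispl and 2 to 3 between the drugs, and 3 to 6, 3 to 9 and 1 to 9 pathway genes. These fits have fewer samples. Their shares of calls over all genes are not given, so that nothing is read from their counts about the lists. The cause of the other shifts was not tested, and median shifts from scaling were at most 0.048 on the log2 scale.

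The labels give replicate numbers 1 and 2 in each group but do not say that they pair samples. Same-numbered libraries deviated with r = 0.07 (Ctrl and Oxali), -0.05 (Ctrl and Cispl) and -0.19 (Oxali and Cispl) over 10731 genes. With a replicate block 2, 4 and 2 members were called in place of 3, 6 and 3. That fit called 6 pathway genes in each comparison in place of 8, 12 and 10. Its share of calls over all genes is not given, so that nothing is read from these counts about the lists. The SE of the members' log2 fold changes ranged from 0.05 for Jak1 to 0.14 for Stat2, and the values of Stat2 (0.20 and 0.27) were not detectable by DESeq2 at this depth and number of libraries.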
